A study of Mus musculus with 15 samples.

Results

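The chemokines *Cxcl1*, *Cxcl2*, *Cxcl3* and *Cxcl5* and the receptors *Cxcr1* and *Cxcr2* were followed in colon RNA of 3 mouse genotypes. They were chosen by gene symbol with earlier results of these data known, and each of these 6 genes had 1 probe set among the 22142 on the array, of which 19527 carried exactly 1 symbol. RNA of whole colon tissue came from 15 mice aged 11 weeks, 5 of each genotype, and each mouse had its own Clariom S mouse array. NEMO IEC-KO Ripk1 S166A/S166A mice (mice 94, 95, 33, 27 and 56) lack NEMO in intestinal epithelial cells, where Villin-Cre drives the deletion, and carry on both alleles a RIPK1 whose autophosphorylation site is changed to alanine. They are called Ripk1 S166A/S166A mice below. NEMO IEC-KO mice (mice 16, 30 and 31, with 2 more called the fourth and the last by their place in the table) carry the same epithelial deletion with Ripk1 wt/wt. NEMO FL mice (mice 18, 22, 28, 29 and 55) carry the floxed allele, and the labels of 4 of them name no Ripk1 allele. Mouse 55 has labels that disagree, as given below. The comparisons ask what the S166A mutation does to the colitis that follows loss of NEMO in the epithelium, here read at the chemokines that call neutrophils into tissue.

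CXCL1, CXCL2, CXCL3 and CXCL5 belong to the CXC chemokines that carry the amino acids glutamate, leucine and arginine before their first cysteines, and this motif lets them bind CXCR2. CXCR2 is the receptor by which neutrophils leave the marrow and follow the gradient into inflamed tissue, and CXCR1 is its closest relative. Signals from TNF, interleukin-1 and Toll-like receptors switch the chemokine genes on through NF-κB in epithelial cells, stromal cells and macrophages, whereas the receptor transcripts lie mostly in neutrophils themselves. In RNA of whole tissue, fewer cells of a type and less RNA per cell cannot be told apart.

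In the mouse annotation GRCm38.p6 the chemokine genes lie on chromosome 5 in the order *Cxcl5*, *Ppbp*, *Pf4*, *Cxcl3*, *Cxcl15*, *Cxcl1* and *Cxcl2*, with no other protein-coding gene starting between them, and *Cxcr2* and *Cxcr1* are neighbours on chromosome 1. RefSeq promoter windows were at hand for 5 of the 6 genes, among them 3 of the 4 chemokines. The last 100 bases before the start of *Cxcl1* (chr5:90891145-90891244), *Cxcl2* (chr5:90903799-90903898) and *Cxcl3* (chr5:90786001-90786100), all on the plus strand of GRCm38.p6, follow 5′ to 3′ because the same stretch of 10 bases that matches the NF-κB consensus, in capitals, stands in each of them.
Cxcl1: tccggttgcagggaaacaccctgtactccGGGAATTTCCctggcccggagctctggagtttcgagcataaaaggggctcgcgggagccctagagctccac
Cxcl2: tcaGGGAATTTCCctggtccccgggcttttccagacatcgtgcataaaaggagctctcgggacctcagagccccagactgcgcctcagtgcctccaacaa
Cxcl3: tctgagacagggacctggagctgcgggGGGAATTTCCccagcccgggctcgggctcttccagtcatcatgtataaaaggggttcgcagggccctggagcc
The 250 bases before each start were searched on both strands for the NF-κB consensus and for the TATA box TATAAA, and matches of both did not overlap. The match lay 71 to 62 bases before the start of *Cxcl1*, 97 to 88 before that of *Cxcl2* and 73 to 64 before that of *Cxcl3*. The consensus had a match in 5% of the 32851 promoter windows of this length, and this exact stretch GGGAATTTCC, on either strand, was in 28 of them, or 0.0852%. TATAAA was found before *Cxcl3* only, 30 to 25 bases from its start, and in 12.4% of all windows. Neither motif was found in the windows of *Cxcr1* and *Cxcr2*. A match is a description of letters and shows no binding.

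The NEMO IEC-KO mice had the highest mean of all 6 genes, and in Ripk1 S166A/S166A mice they lay within 0.22 of the NEMO FL mean on the log2 scale. At an adjusted p under 0.05 from limma, all 6 were lower in Ripk1 S166A/S166A mice than in NEMO IEC-KO mice, where 9.9% of all probe sets were called lower. All 6 were higher in NEMO IEC-KO than in NEMO FL mice, where 11.6% of all probe sets were called higher. None of the 6 was called between Ripk1 S166A/S166A mice and NEMO FL mice, where 0.0542% of probe sets were called in either direction. An unadjusted p under 0.05 from limma was found for 0 of the 6 and for 2336 of 22142 probe sets. With 6 genes, 0 is near that share. The groups did not overlap for 4 of the 6 genes between Ripk1 S166A/S166A mice and NEMO IEC-KO mice, against 6.6% of probe sets that were lower without overlap. They did not overlap for 5 of the 6 between NEMO IEC-KO mice and NEMO FL mice, against 8.04% of probe sets that were higher without overlap. Between Ripk1 S166A/S166A mice and NEMO FL mice all 6 overlapped, while 1.65% of probe sets did not. A fold change past the limit in the legend of the heat maps with an unadjusted p under 0.05 was met by the 6 genes in the comparisons of Ripk1 S166A/S166A with NEMO IEC-KO mice and of NEMO IEC-KO with NEMO FL mice, and by none between Ripk1 S166A/S166A mice and NEMO FL mice. The shares of all probe sets meeting it were 6.49% lower, 6.53% higher and 1.03% in either direction. Without mice 94 and 95, 5 of the 6 stayed called lower, and without mouse 55 all 6 stayed called higher, whereas moving mouse 55 to the NEMO IEC-KO group, as its genotype label reads, left 4 and 2 of these calls. The comparisons share mice, so their results are not independent of each other.

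Some facts of the arrays touch these results. *Ikbkg*, which encodes NEMO, ranged from 5.23 to 5.43 in Ripk1 S166A/S166A mice, 4.85 to 5.30 in NEMO IEC-KO mice, and 6.18 to 6.55 in NEMO FL mice. Mouse 55 is titled WT but its genotype label reads NEMO IEC-KO Ripk1 wt/wt. Its title put it in the NEMO FL group, its *Ikbkg* value was 6.28, and results are given without it and with it moved. Y-linked genes were expressed in 5 of 5 Ripk1 S166A/S166A mice, in 2 of 5 NEMO IEC-KO mice (31 and the fourth) and in 1 of 5 NEMO FL mice (55), so the genotypes differ in their share of males. Mice 94 and 95 had narrower arrays, with an interquartile range of 3.06 and 3.01 where all others lay at 3.22 to 3.40. The mean of 8 epithelial markers was 11.4 to 11.5 in Ripk1 S166A/S166A mice, 10.9 to 11.0 in NEMO IEC-KO mice and 11.4 to 11.6 in NEMO FL mice. *Slc26a3*, the chloride exchanger gene of the colon surface, had log2 values of 12.5 to 12.7 in Ripk1 S166A/S166A mice, 9.49 to 10.6 in NEMO IEC-KO mice and 12.6 to 12.8 in NEMO FL mice, and *Car1*, a carbonic anhydrase gene of colon epithelium, was also lower in NEMO IEC-KO than in NEMO FL mice (log2 changes −2.65 and −1.26, both called by limma). *Epcam*, *Cdh1*, *Vil1*, *Krt8*, *Krt20* and *Cdx2*, the other 6 markers, were not called in any comparison, but *Krt20* was called higher in NEMO IEC-KO than in NEMO FL mice under 8 of 21 other settings.

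**Figure D1:**
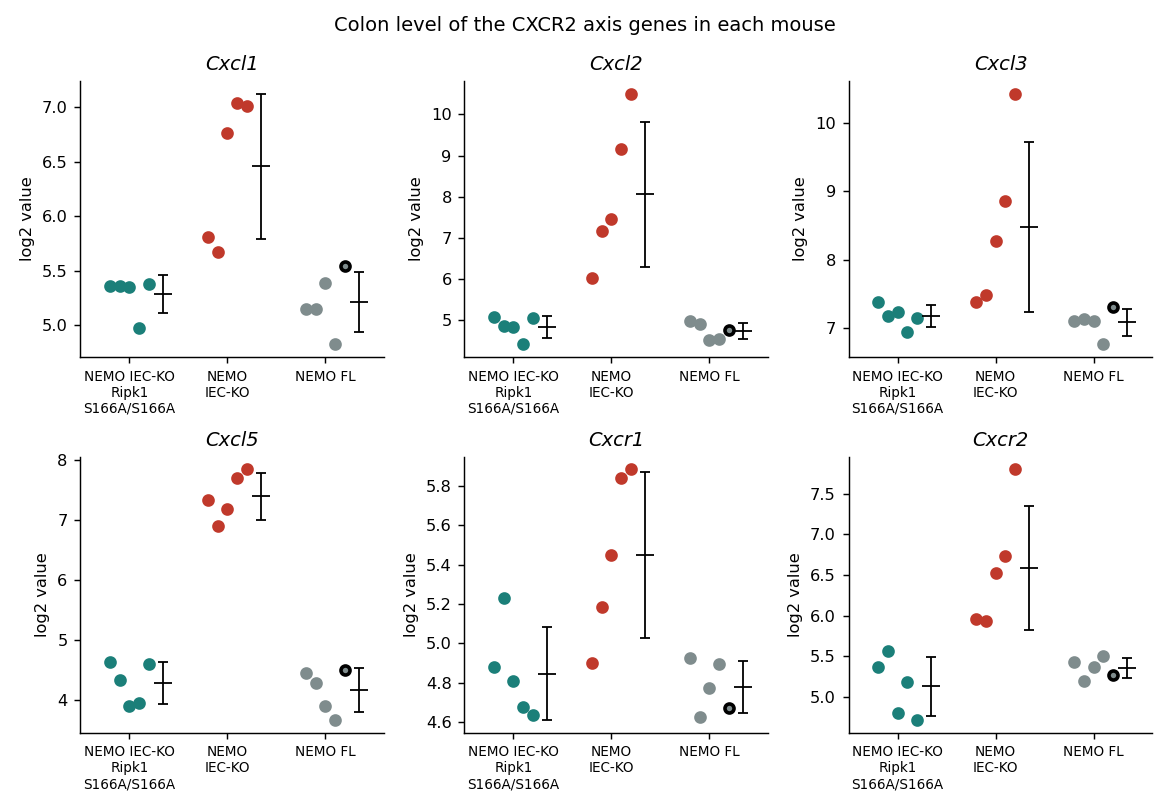
Log2 value of each gene (vertical axis, its own scale in each panel) in every mouse of the 3 genotypes (horizontal axis), with mean and SD of the 5 mice as bars and mouse 55 ringed in black. The 5 NEMO IEC-KO mice lie above all others for *Cxcl1*, *Cxcl2*, *Cxcl5* and *Cxcr2*, with the widest spread for *Cxcl2* (6.02 to 10.5) and a narrow one for *Cxcl5* (6.89 to 7.84).

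*Cxcl5* showed the clearest separation of the genotypes. CXCL5 is known in mouse lung as a chemokine of epithelial cells. Its log2 values were 4.63, 4.32, 3.90, 3.94 and 4.59 in Ripk1 S166A/S166A mice 94, 95, 33, 27 and 56, against 7.33, 6.89, 7.18, 7.69 and 7.84 in NEMO IEC-KO mice 16, 30, 31, the fourth and the last and 4.44, 4.28, 3.90, 3.66 and 4.50 in NEMO FL mice 18, 22, 28, 29 and 55. All NEMO IEC-KO mice were high, and the highest mouse of either other group stayed at least 2.26 below the lowest of them. *Cxcl5* fell by 3.11 on the log2 scale in Ripk1 S166A/S166A mice against NEMO IEC-KO mice (standard error 0.195, adjusted p = 1.74e-07 from limma, exact permutation p = 0.00794, the smallest these groups allow, n = 5 each), or 8.62-fold with a 95% interval of 6.47 to 11.5. It was 9.37-fold higher in NEMO IEC-KO than in NEMO FL mice (log2 change 3.23, standard error 0.196, adjusted p = 3.33e-08 from limma). Its SD was of like size in the 3 genotypes, 0.35 in Ripk1 S166A/S166A, 0.38 in NEMO IEC-KO and 0.36 in NEMO FL mice.

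*Cxcl2* changed by as much on average, but unevenly. CXCL2 is a chemokine made early by macrophages and neutrophils. Its values were 5.06, 4.84, 4.82, 4.39 and 5.03 in Ripk1 S166A/S166A mice, against 6.02, 7.16, 7.44, 9.15 and 10.5 in NEMO IEC-KO mice and 4.95, 4.88, 4.50, 4.53 and 4.75 in NEMO FL mice, in the same order of mice. The groups did not overlap, yet mouse 16 stood 1.29 and the last mouse 5.79 above the NEMO FL mean on the log2 scale. The SD was 0.27 in Ripk1 S166A/S166A mice, 1.77 in NEMO IEC-KO mice and 0.20 in NEMO FL mice. *Cxcl2* fell by 3.23 in Ripk1 S166A/S166A mice against NEMO IEC-KO mice (standard error 0.586, adjusted p = 0.00145 from limma, exact permutation p = 0.00794, n = 5 each), or 9.35-fold with a 95% interval of 3.94 to 22.2. It was 10.1-fold higher in NEMO IEC-KO than in NEMO FL mice (log2 change 3.33, adjusted p = 6.76e-04 from limma). Without the last NEMO IEC-KO mouse the log2 changes were −2.61 and 2.72, both still called by limma.

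*Cxcl1* changed less, and the Ripk1 S166A/S166A mice were close to each other but for mouse 27. CXCL1 is the best known mouse ligand of CXCR2 and is made by epithelium, endothelium and macrophages. Its values were 5.36, 5.36, 5.35, 4.98 and 5.38 in Ripk1 S166A/S166A mice, against 5.81, 5.67, 6.76, 7.04 and 7.01 in NEMO IEC-KO mice and 5.15, 5.15, 5.39, 4.82 and 5.54 in NEMO FL mice. The NEMO IEC-KO mice lay above all others, with mice 16 and 30 at 0.60 and 0.46 above the NEMO FL mean and the other NEMO IEC-KO mice at 1.55 to 1.83 above it. *Cxcl1* fell by 1.17 in Ripk1 S166A/S166A mice against NEMO IEC-KO mice (standard error 0.244, adjusted p = 0.00358 from limma), or 2.26-fold with a 95% interval of 1.57 to 3.23. The log2 change in NEMO IEC-KO mice against NEMO FL mice was 1.25 (adjusted p = 0.00196 from limma).

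*Cxcl3*, a close relative of *Cxcl2*, was high in the NEMO IEC-KO mice only in part. Its values were 7.38, 7.17, 7.23, 6.94 and 7.14 in Ripk1 S166A/S166A mice, against 7.38, 7.48, 8.27, 8.86 and 10.4 in NEMO IEC-KO mice and 7.10, 7.13, 7.10, 6.76 and 7.31 in NEMO FL mice. Mice 16 and 30 lay at most 0.41 above the NEMO FL mean and mouse 16 overlapped with Ripk1 S166A/S166A mouse 94, whereas the last NEMO IEC-KO mouse lay 3.35 above that mean. *Cxcl3* fell by 1.31 in Ripk1 S166A/S166A mice against NEMO IEC-KO mice (standard error 0.417, adjusted p = 0.0382 from limma, exact permutation p = 0.0159, n = 5 each), or 2.48-fold with a 95% interval of 1.34 to 4.58. This call was lost under 12 of 23 other settings, among them leaving out any 1 of the Ripk1 S166A/S166A mice, mouse 31 or the fourth NEMO IEC-KO mouse, and a sex term (adjusted p up to 0.138). The change in NEMO IEC-KO mice against NEMO FL mice was 1.40 (adjusted p = 0.0225 from limma), and without mouse 29 or the fourth NEMO IEC-KO mouse the adjusted p was 0.0562 and 0.0527. Without the last NEMO IEC-KO mouse the log2 changes were −0.82 and 0.92 (adjusted p = 0.0292 and 0.0139 from limma).

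Of the receptors, *Cxcr2* separated the genotypes and *Cxcr1* did so in part. The *Cxcr2* values were 5.37, 5.56, 4.80, 5.19 and 4.72 in Ripk1 S166A/S166A mice, against 5.96, 5.93, 6.53, 6.74 and 7.80 in NEMO IEC-KO mice and 5.44, 5.19, 5.37, 5.50 and 5.27 in NEMO FL mice. No NEMO IEC-KO mouse overlapped with the others, and the last mouse was the highest. *Cxcr2* fell by 1.46 in Ripk1 S166A/S166A mice against NEMO IEC-KO mice (standard error 0.290, adjusted p = 0.00264 from limma), or 2.75-fold with a 95% interval of 1.80 to 4.23, and was 1.24 higher in NEMO IEC-KO than in NEMO FL mice (adjusted p = 0.00313 from limma).

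*Cxcr1* had the smallest changes of the 6 genes. Its values were 4.88, 5.23, 4.81, 4.68 and 4.64 in Ripk1 S166A/S166A mice, against 4.90, 5.19, 5.45, 5.84 and 5.88 in NEMO IEC-KO mice and 4.93, 4.63, 4.77, 4.90 and 4.67 in NEMO FL mice. NEMO IEC-KO mouse 16 lay within the NEMO FL range and mice 16 and 30 below Ripk1 S166A/S166A mouse 95, so the groups overlapped in both comparisons. *Cxcr1* fell by 0.60 in Ripk1 S166A/S166A mice against NEMO IEC-KO mice (standard error 0.186, adjusted p = 0.0328 from limma, exact permutation p = 0.0317, n = 5 each), and 8 of 22 other settings ended this call (adjusted p up to 0.184), leaving out mouse 94, 33, 27, 56 or 31 or the fourth or the last NEMO IEC-KO mouse among them. It was 0.67 higher in NEMO IEC-KO than in NEMO FL mice (adjusted p = 0.00923 from limma).

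Between Ripk1 S166A/S166A mice and NEMO FL mice the log2 differences were 0.07 for *Cxcl1*, 0.11 for *Cxcl2*, 0.09 for *Cxcl3*, 0.12 for *Cxcl5*, 0.07 for *Cxcr1* and −0.22 for *Cxcr2*, with adjusted p of 0.60 to 0.86 from limma. Their 95% intervals reached at most 0.37, 0.41, 0.36, 0.51, 0.34 and 0.10 upward in the same order of genes. The largest rise in array signal that any of them allows, in this fit without a sex term, is thus 1.43-fold, for *Cxcl5*. The lowest bound was that of *Cxcr2*, −0.55. Males made up 5 of 5 Ripk1 S166A/S166A mice and 1 of 5 NEMO FL mice, so these intervals do not separate genotype from sex. With a sex term, which rests on mouse 55 alone, the differences were −0.26 for *Cxcl1*, −0.14 for *Cxcl3* and −0.22 for *Cxcl5*. Those of *Cxcl2*, *Cxcr1* and *Cxcr2* kept their sign. The order of the group means was thus NEMO IEC-KO highest for every gene, with the other genotypes not separated beyond their spread. With 5 arrays a group, precision is limited, and the p-values weigh a difference of means against the spread between mice. In both of these genotypes *Cxcl1*, *Cxcl2*, *Cxcl5*, *Cxcr1* and *Cxcr2* lay below the median of every array, whereas *Cxcl3* lay above it. The intervals therefore bound the array signal. How closely the signal follows the amount of RNA at such low values was not tested.

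**Figure D2:**
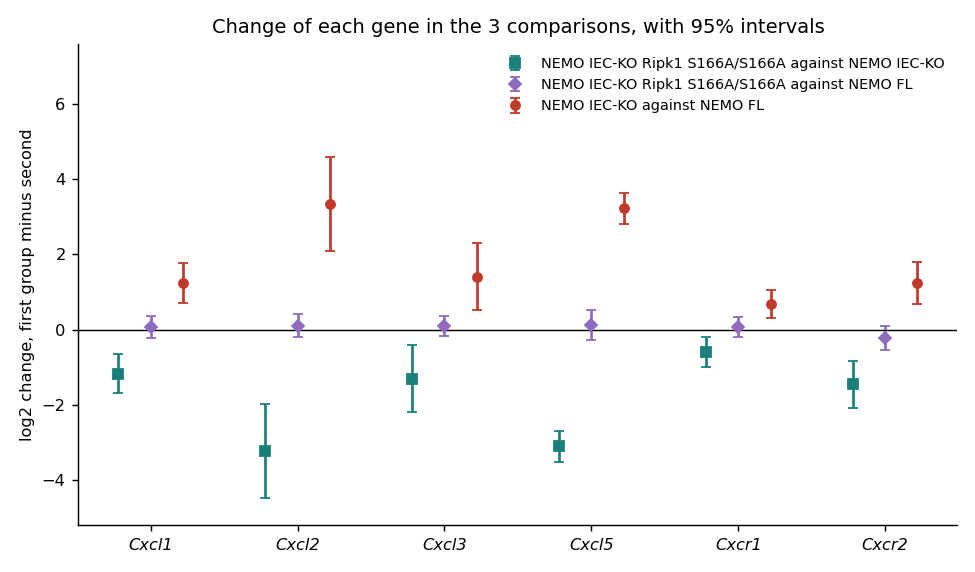
Log2 change of each gene (vertical axis, first named group minus the second) with its 95% interval from limma in the 3 comparisons of 5 mice against 5. The intervals of Ripk1 S166A/S166A mice against NEMO FL mice include 0 for every gene, and those of *Cxcl2* are wider than those of *Cxcl5* wherever NEMO IEC-KO mice were compared.

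The NEMO IEC-KO mice differed among themselves, and mostly in a like order. The last mouse was the highest for *Cxcl2*, *Cxcl3*, *Cxcl5*, *Cxcr1* and *Cxcr2*, the fourth was the highest for *Cxcl1*, and either mouse 16 or mouse 30 was the lowest for every gene. The distance between the highest and the lowest NEMO IEC-KO mouse was 4.49 for *Cxcl2*, 3.05 for *Cxcl3*, 1.87 for *Cxcr2*, 1.37 for *Cxcl1*, 0.98 for *Cxcr1* and 0.95 for *Cxcl5* on the log2 scale. The mean of 16 measured neutrophil markers moved with these genes. It was 4.47 to 4.93 in Ripk1 S166A/S166A mice, 5.81, 6.66, 7.31, 7.25 and 7.88 in NEMO IEC-KO mice 16, 30, 31, the fourth and the last, and 4.47 to 4.67 in NEMO FL mice. Of these markers 13 fell and 0 rose in Ripk1 S166A/S166A mice against NEMO IEC-KO mice, with a median log2 change of −2.16, and 13 rose and 0 fell in NEMO IEC-KO mice against NEMO FL mice. The shares of all probe sets called in these directions were 9.9% lower and 11.6% higher. *Camp*, *Mpo* and *Elane*, granule genes of developing neutrophils, were the 3 not called in either. *Ngp* and *Ltf*, also granule genes, were called in both, with log2 changes of −1.36 and 1.47 for *Ngp* and −1.66 and 1.80 for *Ltf*. In Ripk1 S166A/S166A mice against NEMO IEC-KO mice the call of *Cd177* was lost with a sex term and in male mice alone. That of *Ngp* was lost under 3 of 21 other settings. The part of neutrophil number in the levels of *Cxcr1*, *Cxcr2* and the chemokines was not tested. The highest and the lowest NEMO IEC-KO values of *Cxcl2* were both in mice without Y-linked signal (the last and mouse 16). In a fit of male mice alone, with 5 Ripk1 S166A/S166A mice against 2 males of the NEMO IEC-KO group, all 6 genes were called lower, where 9.77% of all probe sets were, with log2 changes of −1.62 for *Cxcl1*, −3.47 for *Cxcl2*, −1.39 for *Cxcl3*, −3.16 for *Cxcl5*, −0.80 for *Cxcr1* and −1.50 for *Cxcr2*.

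**Figure D3:**
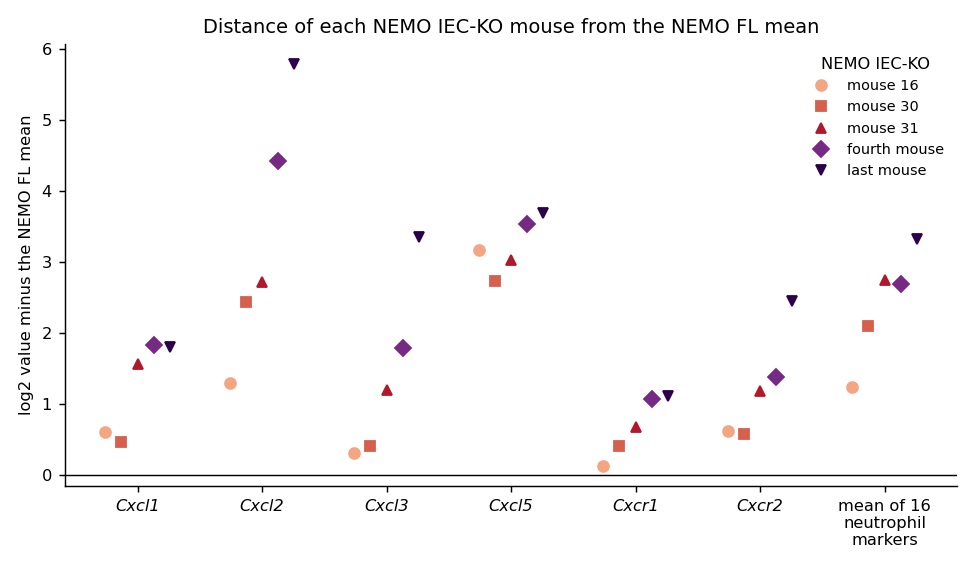
Log2 value minus the NEMO FL mean (vertical axis) of the 5 NEMO IEC-KO mice, 1 symbol per mouse, for the 6 genes and for the mean of 16 neutrophil markers (horizontal axis). The last mouse in table order stands 5.79 above the NEMO FL mean for *Cxcl2* and mouse 16 stands 1.29 above it, while the 5 mice lie between 2.73 and 3.68 for *Cxcl5*.

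The genes most like each member over the 15 mice were found by the root mean square difference of profiles scaled to mean 0 and SD 1, where 0 would be the same profile. The nearest gene to *Cxcl2* was the chemokine gene *Ccl3*, at 0.0788. It was followed by *Acod1*, whose product makes itaconate, at 0.156 and by *Il1a* at 0.165. *Ccl3* ranged from 4.26 to 4.77 in Ripk1 S166A/S166A mice, 5.83 to 10.9 in NEMO IEC-KO mice, and 4.38 to 4.58 in NEMO FL mice. *Cxcl3* was nearest to *Hcar2*, a receptor for hydroxybutyrate, at 0.203, then to the chemokine *Ccl4* and to *Mrgpra2a*. *Cxcl5* was nearest to *S100a8*, a subunit of calprotectin, at 0.211, then to *Phlda1* and *Cwh43*. *Cxcl1* was nearest to the stefin genes *Stfa2* and *Stfa2l1*, at 0.295 and 0.313, and to the neutrophil lectin *Clec4d*. These stefin genes are near copies of each other, so their signals may not be separate. *Cxcr2* was nearest to the stefin gene *Csta2* at 0.275, then to the decoy receptor gene *Il1r2* and to *Il1f9*, and *Cxcr1* to *Mrgpra2b* at 0.328, then to *Clec4e* and *Ccl3*. Among the 6 genes the closest pair was *Cxcl2* and *Cxcl3*, at 0.311, and the farthest was *Cxcl3* and *Cxcl5*, at 0.647. These likenesses describe 15 mice that fall into 3 genotypes.

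Signals upstream of the chemokines were high in the same groups. Of 16 measured genes, 8 fell and 0 rose in Ripk1 S166A/S166A mice against NEMO IEC-KO mice, with a median log2 change of −0.60 against 0.02 over all probe sets. In NEMO IEC-KO mice against NEMO FL mice 8 rose and 0 fell, with a median of 0.46 against 0.01 over all probe sets. The shares of all probe sets called in these directions were 9.9% lower and 11.6% higher. *Il1b* and *Il1a*, which encode the interleukin-1 cytokines, and *Tnf* had the largest changes. In Ripk1 S166A/S166A mice against NEMO IEC-KO mice the log2 changes were −5.16 for *Il1b*, −2.99 for *Il1a* and −2.16 for *Tnf*. In NEMO IEC-KO mice against NEMO FL mice these genes were 5.08, 3.28 and 2.48 higher. *Il17a* and *Il17f*, cytokines of T cells that act on epithelium to raise these chemokines, were not called, with log2 changes of 0.27 and 0.22 in NEMO IEC-KO mice against NEMO FL mice. Neither was *Csf3*, the growth factor of neutrophils, at 0.17.

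Of the other ligands and cluster neighbours, *Mif* alone passed the test. MIF is a cytokine that also binds CXCR2. It fell by 1.02 in Ripk1 S166A/S166A mice against NEMO IEC-KO mice and was 1.23 higher in NEMO IEC-KO than in NEMO FL mice. The platelet chemokines *Ppbp* and *Pf4* and the chemokine gene *Cxcl15*, which lie among the 4 chemokine genes on chromosome 5, had log2 changes of −0.23, 0.28 and 0.01 in Ripk1 S166A/S166A mice against NEMO IEC-KO mice and of 0.24, −0.17 and −0.06 in NEMO IEC-KO mice against NEMO FL mice, and were not called in any comparison.

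Other receptors and adhesion genes of neutrophils followed the same pattern. Of 5 measured chemoattractant receptors, 4 fell in Ripk1 S166A/S166A mice against NEMO IEC-KO mice, and 4 rose in NEMO IEC-KO mice against NEMO FL mice. Over all probe sets, 9.9% were called lower in the first of these comparisons and 11.6% higher in the second. *Ccr1* fell by 1.83, *Ptafr*, the receptor of platelet activating factor, by 1.05, *C5ar1*, the receptor of complement C5a, by 0.76, and *Cxcr4*, which holds neutrophils in the marrow, by 0.51. The call of *Cxcr4* was lost under 11 of 23 other settings, and without mouse 95 the count was 2. *Ltb4r1*, the leukotriene B4 receptor, had a log2 change of −0.27 and was not called. Of 7 adhesion genes, 6 fell and 0 rose in Ripk1 S166A/S166A mice against NEMO IEC-KO mice, and 6 rose and 0 fell in NEMO IEC-KO mice against NEMO FL mice. *Selp*, the P-selectin of activated vessels, fell by 2.22, and the integrin genes *Itgam* and *Itgal* fell by 1.40 and 1.38. Below the receptors, 2 of 11 signalling genes fell in Ripk1 S166A/S166A mice against NEMO IEC-KO mice, *Rac2* by 0.92 and *Prex1* by 0.65, both acting in neutrophil movement. In NEMO IEC-KO mice against NEMO FL mice 7 of the 11 rose, but the calls of *Pik3cg* and *Vav1* were lost under 12 and 10 of 21 other settings. *Pik3r5*, a subunit of phosphoinositide 3-kinase gamma, had log2 changes of −0.42 and 0.71 in these comparisons and passed the test only in the second.

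Genes that limit the chemokines or their mRNA went both ways. Of 8 measured genes, 2 fell and 1 rose in Ripk1 S166A/S166A mice against NEMO IEC-KO mice, with a median log2 change of −0.03, and 1 fell without mouse 27. Over all probe sets, 9.9% were called lower and 2066 of 22142 higher in this comparison. *Socs3*, an inhibitor of cytokine signalling, fell by 0.83, and *Zc3h12a*, whose product regnase cuts cytokine mRNA, fell by 0.64. *Tnip1*, which encodes a restraint on NF-κB, was 0.60 higher in Ripk1 S166A/S166A mice than in NEMO IEC-KO mice and fell by 0.72 in NEMO IEC-KO mice against NEMO FL mice. *Zfp36*, whose product tristetraprolin destabilises chemokine mRNA, had a log2 change of −0.47 in Ripk1 S166A/S166A mice against NEMO IEC-KO mice and was not called there. It was 0.87 higher in NEMO IEC-KO than in NEMO FL mice, a call lost under 11 of 21 other settings. The atypical receptors *Ackr1* and *Ackr2*, which take up chemokines, were not called in any comparison. *Ackr1* was called higher in NEMO IEC-KO than in NEMO FL mice under 6 of 20 other settings. None of the 102 measured genes of the pathway and cell type lists was called by limma between Ripk1 S166A/S166A mice and NEMO FL mice, where 0.0542% of all probe sets were called. An unadjusted p under 0.05 from limma was found for 21 of the 102, a larger share than the 2336 of 22142 probe sets. With a sex term this comparison rested on the Ripk1 S166A/S166A mice against mouse 55 alone. It was the only NEMO FL mouse with Y-linked signal, so calls of that fit are not given. In the main fit the 7 adhesion genes and the 11 signalling genes all lay above NEMO FL in Ripk1 S166A/S166A mice. Their median log2 differences were 0.32 and 0.28 against 0.01 over all probe sets, though 1 adhesion gene lay below NEMO FL after median centring or quantile normalization. The 5 T cell markers also all lay above NEMO FL, by 0.09 to 0.52. The 4 fibroblast (−0.78 to −0.18), 4 endothelial (−0.30 to −0.10) and 3 smooth muscle markers (−0.19 to −0.09) all lay below it. Each other list went both ways. Such shifts were thus not particular to the pathway lists, and the part of sex in them was not tested. The mean of the adhesion genes was 5.86 to 6.13 in Ripk1 S166A/S166A mice, 6.53 to 7.64 in NEMO IEC-KO mice and 5.53 to 5.86 in NEMO FL mice, and Ripk1 S166A/S166A mouse 95 lay just below NEMO FL mouse 18.

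**Figure D4:**
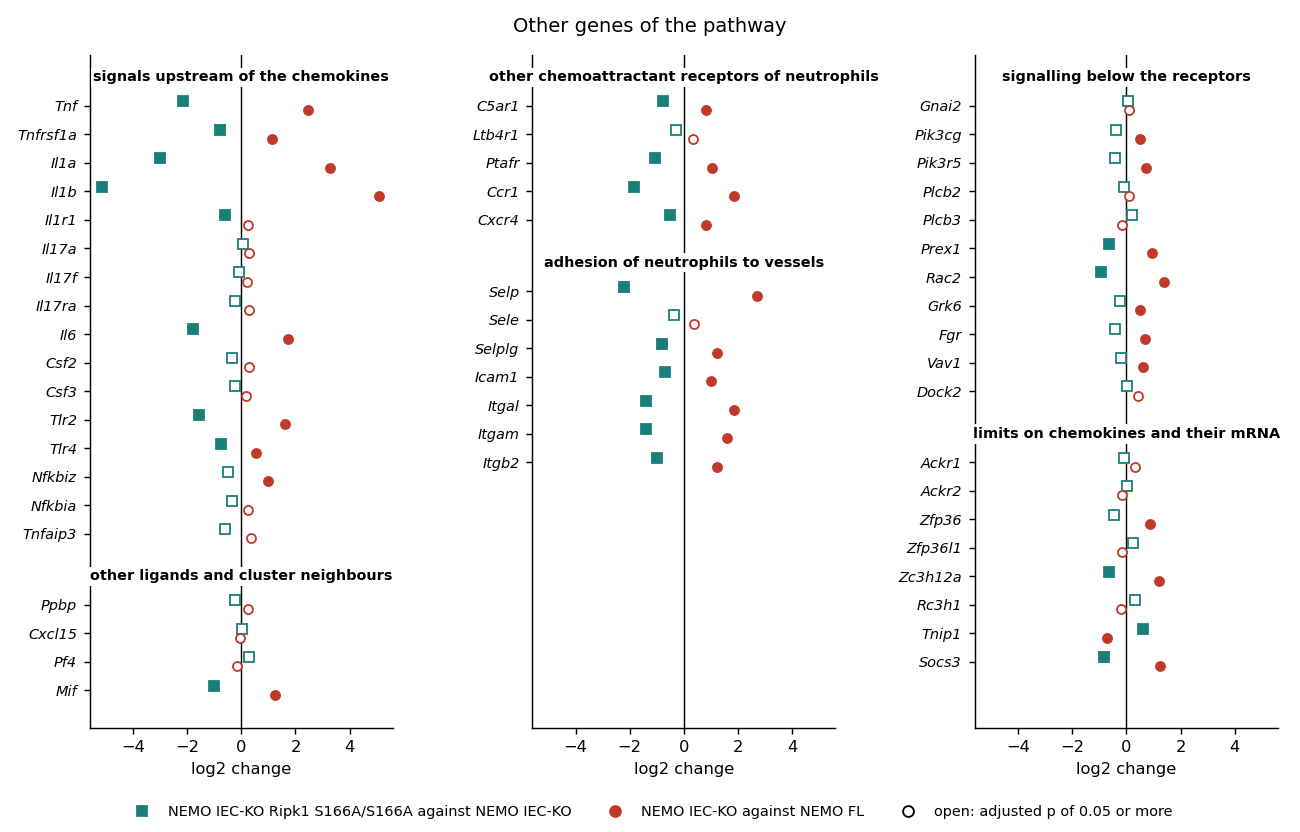
Log2 change (horizontal axis) of 51 other genes of the pathway in 6 lists, as squares for Ripk1 S166A/S166A mice against NEMO IEC-KO mice and as circles for NEMO IEC-KO mice against NEMO FL mice, filled where the adjusted p from limma was under 0.05. *Il1b* lies farthest from 0, at −5.16 and 5.08, and *Tnip1* is the called gene that runs against the others.

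Markers of other cell types moved with the genotype as well. Over all probe sets, 9.9% were called lower and 2066 of 22142 higher in Ripk1 S166A/S166A mice against NEMO IEC-KO mice. Of 6 macrophage markers 4 fell and 1 rose in Ripk1 S166A/S166A mice against NEMO IEC-KO mice. Without mouse 95 or the fourth NEMO IEC-KO mouse 1 fell, *Lyz2*, without mouse 30 or 31 2 fell, and without mice 94 and 95 together 0 fell. The mean of the list was 6.99 to 7.79, against 7.40 to 8.39 in NEMO IEC-KO and 7.38 to 7.68 in NEMO FL mice. *Cd163*, the scavenger receptor gene of resident macrophages, rose by 1.35 and was named after its value was seen. Of 5 T cell markers 4 fell, and 2 fell without mice 94 and 95. Of 5 mast cell markers 1 rose, *Kit* by 0.82. *Kit* had a mean of 8.87 in NEMO FL mice, where the means of the other markers of this list were 3.21 to 6.07. Whether *Kit* read mast cells in this tissue was not tested. In NEMO IEC-KO mice against NEMO FL mice the mast cell list went both ways, with *Kit* called lower by limma at −1.22 and *Cpa3* and *Cma1* called higher at 0.65 and 0.35. The call of *Cma1* was lost without mouse 18, 29, 55 or 31. None of 4 fibroblast and 4 endothelial markers was called by limma in Ripk1 S166A/S166A mice against NEMO IEC-KO mice, with 2 and 1 at an unadjusted p under 0.05. Leaving out mouse 56 added 1 fibroblast call, and leaving out mouse 27 or 16 added 1 or 2 endothelial calls. In NEMO IEC-KO mice against NEMO FL mice 2 of the 4 fibroblast markers were called lower by limma, *Lum* at −1.47 and *Dcn* at −0.55. No endothelial marker was called there. All 3 smooth muscle markers were higher in Ripk1 S166A/S166A mice (list mean 11.1 to 11.8) than in NEMO IEC-KO mice (8.51 to 10.4), with 11.3 to 11.8 in NEMO FL mice, and 1 of the 3 stayed called with a sex term. The last NEMO IEC-KO mouse, the highest for 5 of the 6 genes, had the lowest smooth muscle mean. Of 8 epithelial markers 2 were called higher in Ripk1 S166A/S166A mice than in NEMO IEC-KO mice, *Slc26a3* by 2.51 and *Car1* by 1.03, and the call of *Car1* was lost with a sex term and in male mice alone. The part of these cell types in the chemokine levels was not tested.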

How the data were processed

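Colon RNA of 15 mice was measured on Clariom S mouse arrays from 100 ng of total RNA each, 1 array per mouse. The authors deposited 1 table of log2 values for 22142 probe sets by 15 arrays. The base was read from the range of the values, and the background correction, summary and normalization are not given in the sources used here. The submitters' processing notes name Affymetrix Expression Console and Transcriptome Analysis Console. Probe sets were named from the platform annotation. The values were used as deposited, and no probe set was left out for low signal. The 2 groups of a comparison entered a limma 3.58.1 fit of their own (lmFit and eBayes, R 4.3.3), adjusted by Benjamini-Hochberg over 22142 probe sets and called at an adjusted p under 0.05. Exact permutation tests were two-sided over 252 assignments of 10 mice, with a smallest p of 0.00794. The replicates are separate mice. The script was tested on simulated data.

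The genes, their lists and the tests were chosen with earlier results of these data known. Of 110 list genes, 102 were analysed here. Besides the 6 genes, the text names of each pathway list the 3 largest changes called in NEMO IEC-KO mice against NEMO FL mice, those called against the rest and whole lists of up to 5 genes, and for each of the 6 genes the 3 most alike in profile. *Il17a*, *Il17f*, *Csf3*, *Pik3cg*, *Vav1*, *Ackr1*, *Ackr2* and the cell type markers were named outside this rule after their values were seen. As alternatives a fit of all 3 groups was tried, robust eBayes with a trend, array weights, median centring, quantile normalization, filters on low signal, probe sets with 1 symbol only, mouse 55 moved, a sex term, male mice only, the criterion of the heat map legend, leaving out mice 94 and 95, and each mouse left out in turn. Promoter sequences are those of RefSeq on GRCm38.p6.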

Additional observations from a re-analysis of the deposited data

Results flagged for a closer look

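The *Cxcl1* value of NEMO IEC-KO Ripk1 S166A/S166A mouse 27, 4.98, lay apart from the other 4 mice of its genotype, which ranged from 5.35 to 5.38. The gap to the nearest of them took up 0.933 of the range of the group, above Dixon's 95% critical value of 0.71 for 5 samples. Over the 6 genes and 3 genotypes this was the one value past that limit, and chance alone flags about 1 in 20 groups. Mouse 27 was also the lowest of its genotype for *Cxcl2* (4.39) and *Cxcl3* (6.94). Without mouse 27 *Cxcl1* stayed called lower in this genotype than in NEMO IEC-KO mice.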

How the results depend on the processing

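No result of the 6 genes changed its direction where it was called. Of the 6 genes called in the main setting, the setting without probe sets below the median left 1 called in Ripk1 S166A/S166A mice against NEMO IEC-KO mice and 1 in NEMO IEC-KO mice against NEMO FL mice, because *Cxcl3* alone of the 6 passed this filter. With mouse 55 as NEMO IEC-KO, 4 and 2 were called in these comparisons. Then *Cxcl2*, *Cxcl3*, *Cxcr1* and *Cxcr2* were lost in NEMO IEC-KO mice against NEMO FL mice, with adjusted p of 0.0596, 0.127, 0.16 and 0.103, since the move adds a mouse at the NEMO FL level. Leaving out each mouse in turn gave 4 to 6 called genes in Ripk1 S166A/S166A mice against NEMO IEC-KO mice, 5 to 6 in NEMO IEC-KO mice against NEMO FL mice and 0 each time in Ripk1 S166A/S166A mice against NEMO FL mice. Without mice 94 and 95, 5 were called in the first of these, and without mouse 55 all 6 in the second. *Cxcl1*, *Cxcl2*, *Cxcl5* and *Cxcr2* kept their call in Ripk1 S166A/S166A mice against NEMO IEC-KO mice under every setting in which they were tested, with adjusted p up to 0.0402, 0.0477, 0.0144 and 0.0451. Over all probe sets, calls in either direction numbered 4258 in Ripk1 S166A/S166A mice against NEMO IEC-KO mice, 1434 with mouse 55 moved, 2678 at the criterion of the legend and 2438 without mice 94 and 95. They numbered 5628 in NEMO IEC-KO mice against NEMO FL mice, 1807 with mouse 55 moved and 3166 at the criterion of the legend. They numbered 12 in Ripk1 S166A/S166A mice against NEMO FL mice, and 4 to 228 under other settings. With mouse 55 moved, 7 neutrophil markers in place of 13 were called lower in Ripk1 S166A/S166A mice against NEMO IEC-KO mice and 0 adhesion genes in place of 6, and 0 macrophage, 0 T cell and 0 smooth muscle markers were called. The cause of other changes was not tested. No paired analysis was possible because the labels give no litter and each mouse number occurs once. The study used littermates, so mice may share litters across genotypes, and this was not tested. The setting with another probe set per gene was not run because each gene had 1, and male mice alone could be compared only between Ripk1 S166A/S166A mice and NEMO IEC-KO mice.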
